A study of Mus musculus with 14 samples.

Results

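The genes described here are the 8 Smad genes of the mouse and 2 corepressor genes of transforming growth factor-beta (TGF-beta) signalling, Skil and Tgif1. They are 10 of the 21938 protein-coding genes of the GENCODE annotation (release M21). The rule listed them by name. Smad7 and Tgif1 were listed because their peaks were among the widest in these data, so peak widths are given below as a description and without a test.

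Trimethylation of lysine 4 on histone H3 (H3K4me3) was mapped by chromatin immunoprecipitation and sequencing (ChIP-seq) in iMEF cells, an immortalised line of mouse embryo fibroblasts. In all groups an exon of the endogenous Ash2l gene had been deleted by an inducible Cre recombinase (Cre-ER), and the cells lived on a lentiviral fusion of FKBP with human ASH2L, a core subunit of the KMT2 complexes that methylate H3K4. The ChIP-seq cells were of 1 clone, NG3. The 12 H3K4me3 libraries came from untreated cells and from cells given dTAG, which sends the fusion protein to degradation, for 30 min, 2 h, 4 h, 8 h or 16 h, with 2 replicates each, and 2 input libraries completed the set.

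The data analysed were 2 lists of positions, namely H3K4me3 peaks, called from any of the samples, and putative enhancers, called in control cells. Neither holds a value per sample, so the depth behind a peak cannot be read from them, no error between replicates could be given, and change after dTAG was not analysed here. Because the peak list pools untreated and dTAG-treated cells, peaks, their widths and the gaps between them need not be those of untreated cells. Each gene has 1 value, and no test was made. Fibroblast identity was checked through markers. All 10 fibroblast genes looked at had a peak within 1 kb of a transcription start site (TSS), the widest of which measured from 382 bp at Col3a1 to 3018 bp at Prrx1, and 0 of the 5 blood genes did. Of 4 genes each for endothelium, epithelium and neurons, 2 had such a peak, of 435 to 1737 bp, widths that overlap those of the fibroblast genes.

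Smad proteins carry signals of the TGF-beta family from the cell surface to the nucleus. Ligands bind pairs of kinase receptors, which phosphorylate the receptor-regulated Smads. Smad2 and Smad3 serve mainly TGF-beta and activin, and Smad1, Smad5 and Smad9 mainly the bone morphogenetic proteins (BMPs). The activated proteins join the common Smad4 and bind DNA at target genes. Smad6 and Smad7 are inhibitory Smads that block receptors and are themselves target genes of the pathway, which closes a feedback loop. Skil (also called SnoN) and Tgif1 are corepressors that hold Smad target genes in check. Fibroblasts respond to TGF-beta with matrix production and contraction.

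All 10 genes had an H3K4me3 peak with at least 1 base within 1 kb of a TSS, here called a promoter peak. Among all protein-coding genes, 12966 (59.1%) had one. The members carried 29 peaks in all, of which 19 were promoter peaks and 10 lay only in a gene body. Smad7 alone held 11 peaks. Smad4 and Smad6 had 3 each, Smad1, Smad3, Smad5, Skil and Tgif1 had 2 each, and Smad2 and Smad9 had 1 each. The number per gene was low outside Smad7, with a median of 2.0 for the members and also for the 12966 genes. The number of annotated TSSs also had a median of 5.0 in both. Several promoter peaks at 1 gene, which were seen in 7 of the 10 members (all but Smad2, Smad3 and Smad9), occurred in 40.3% of the 12966 genes.

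**Figure D1:**
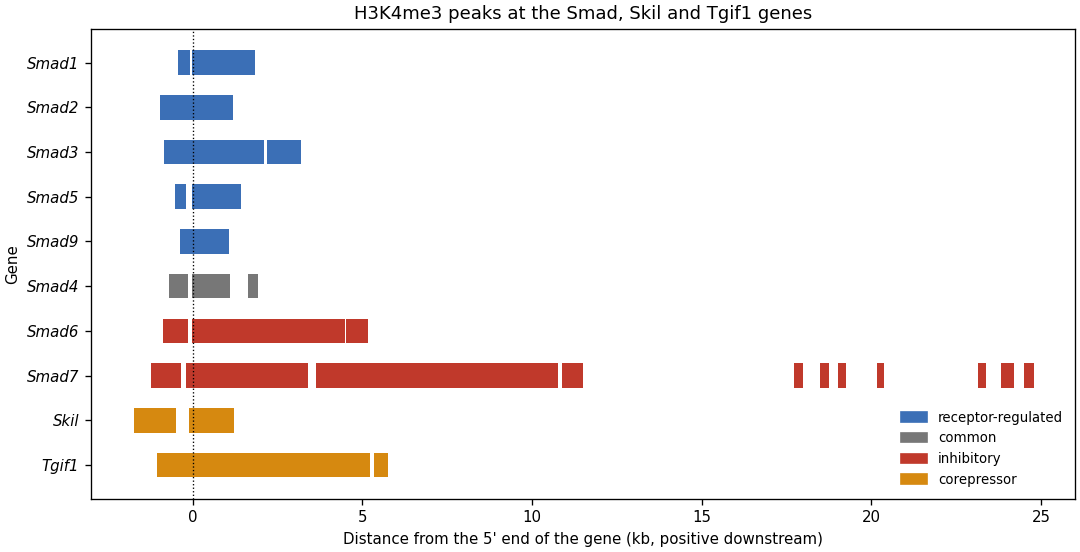
H3K4me3 peaks of the 10 genes by distance from the 5′ end of the gene, in kb, with downstream to the right. Each bar is 1 peak, coloured by the class of the protein. The peaks of Smad7 reach 24781 bp downstream, those of Tgif1 5767 bp and those of Smad6 5163 bp, and the last peak of the other genes ends at 3205 bp or less.

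Promoter peaks were widest at Smad7, Tgif1 and Smad6. The peak of Smad7 measured 7130 bp, that of Tgif1 6270 bp and that of Smad6 4510 bp. Among the 12966 genes with a promoter peak these took places 3, 5 and 34. The 7130 bp peak of Smad7 began 3639 bp downstream of the 5′ end and held only 1 of its 5 annotated TSSs. The peak that held the other 4 measured 3603 bp, less than the widest of Tgif1 and Smad6. After Smad6, the next member was Smad3 with 2957 bp, wider than 96.7% of genes, followed by Smad2 with 2166 bp and Smad1 with 1848 bp. Smad9 with 1441 bp, Smad5 with 1439 bp and Skil with 1344 bp stood close together near the middle of all genes. Smad4, the partner shared by all branches, had the narrowest at 1121 bp, and 40.3% of genes had a narrower one. The median was 2007 bp over the members and 1255 bp over all genes with a promoter peak. A width of 2000 bp or more was reached by 5 of the 10 members, while 16.0% of all these genes reached it. Smad7 and Tgif1, listed for their wide peaks, are among these 5 and enter the median of the members. The limit was set after the values were seen, so neither comparison is a result about the family. Differences of a base or a few, as between Smad9 and Smad5, carry no order. The order of the members also holds for single peaks only. Joined across gaps of up to 1000 bp, Skil had a domain of 2964 bp and Smad4 one of 2605 bp. These were wider than those of 89.1 and 83.0% of genes, and Smad9 then had the narrowest at 1441 bp.

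**Figure D2:**
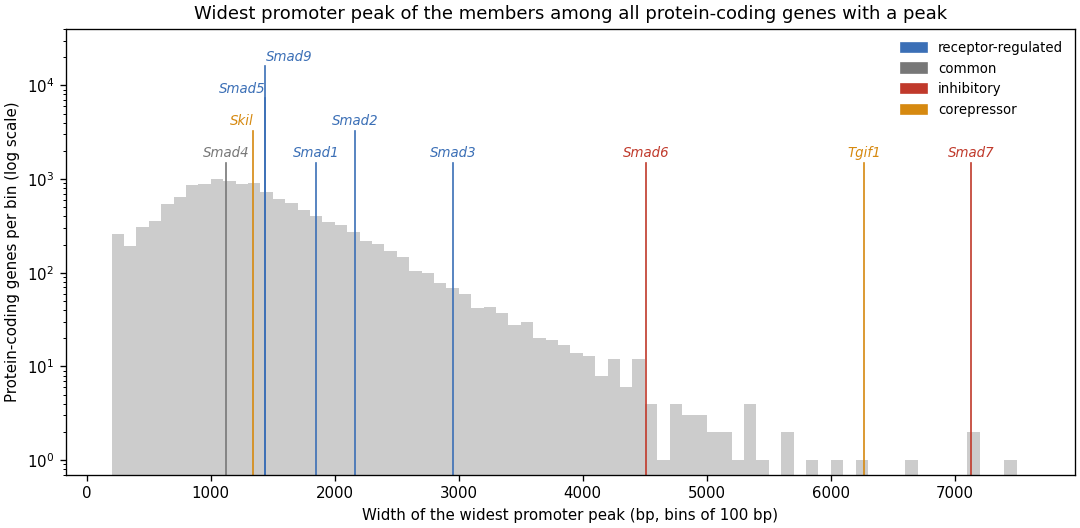
Widest promoter peak of each gene, in bp, for the 12966 protein-coding genes with a promoter peak (grey, genes per bin of 100 bp, log scale), with a line for each of the 10 genes coloured by class. Smad7, Tgif1 and Smad6 stand in the sparse right tail, and Smad4, Skil, Smad5 and Smad9 within the bulk.

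Smad7 antagonises the TGF-beta receptors by recruiting ubiquitin ligases to them. Its gene lies on chromosome 18, from 75367529 to 75395935 on the plus strand (mm10; all positions count from 1). A promoter peak of 884 bp ended 345 bp upstream of the 5′ end and also covered a TSS of Gm20544. The next peak, of 3603 bp, ran from position -193 to position 3409 relative to the 5′ end. It held 4 of the 5 annotated TSSs, and 42.0% of its bases were untranslated and 18.7% coding exon. The widest peak began 3639 bp downstream and reached 10768 bp, with 97.0% of its bases in introns, and held the remaining TSS, which is why it counts as a promoter peak. An intronic peak of 624 bp followed. These 4 peaks were parted by only 151, 229 and 108 bp. Joined across gaps of up to 1000 bp they made a domain of 12729 bp, place 6 among all genes with a promoter peak. Above it stood Hoxa7, Hoxa9 and Hoxa10, which share a domain of 21204 bp, Tbx15 and Tnrc18.

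Further into Smad7, 7 small peaks were spread between 17727 and 24781 bp from the 5′ end. They were 217 to 358 bp wide, lay wholly in introns, and none overlapped a listed enhancer or a CpG island, a stretch rich in CpG dinucleotides. Having 11 or more peaks was rare, with 17 of 12966 genes (0.131%). This limit is the count of Smad7 itself, and the 7 small peaks in it lay near the narrowest width in the list, 200 bp. None of the other 9 members had a peak beyond 5767 bp from its 5′ end.

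Smad6, the other inhibitory Smad, acts mainly on BMP signalling. Its gene is on chromosome 9, from 63953076 to 64022059 on the minus strand. The 4510 bp peak ran from position -17 to position 4492 relative to the 5′ end, with 41.1% of its bases in exons, 24.2% in coding sequence, and 58.5% in introns. A peak of 645 bp followed after a break of only 26 bp and took in the last of the 3 annotated TSSs. Upstream lay a peak of 711 bp. Within 1000 bp of each other, these made a domain of 6576 bp, which also took in a 216 bp peak just beyond the 1 kb limit, at 1197 bp from a TSS. The domain took place 56.

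Tgif1 encodes a homeodomain protein that recruits repressors to Smad complexes. The gene, on chromosome 17 from 70844205 to 70853546 on the minus strand, is the shortest of the members at 9342 bp and has the most annotated TSSs, 11. Its 6270 bp peak reached from 1038 bp upstream to 5231 bp downstream and held 9 of these TSSs, 4 CpG islands and a TSS of Gm9320. A second peak of 414 bp lay wholly in exon. Merged, both spanned 6806 bp, place 48. Smad6, at 68984 bp, is much longer, so that its peaks reached a smaller part of the gene.

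The receptor-regulated Smads had 1 or 2 peaks each, within 3205 bp of the 5′ end. Smad3 (chromosome 9, 63646767 to 63757994, minus strand), the main TGF-beta effector in fibroblasts, had 2957 bp of promoter peak from 846 bp upstream to 2110 bp downstream. After 96 bp, an intronic peak of 999 bp extended this to a domain of 4052 bp, wider than that of 96.4% of genes. Smad2 (chromosome 18, 76241580 to 76310963, plus strand) had a single peak of 2166 bp, which contained 4 of its 6 TSSs. Smad9 (chromosome 3, 54755582 to 54801257, plus strand) had a single peak of 1441 bp around its only TSS. Smad1 (chromosome 8, 79338395 to 79399518, minus strand) had peaks of 356 and 1848 bp, and Smad5 (chromosome 13, 56703010 to 56742377, plus strand) had peaks of 320 and 1439 bp. Smad5 had a peak within 1 kb of 5 of its 6 annotated TSSs and Smad2 of 4 of 6. Smad1 had one at 1 of 3 and Smad3 at 1 of 5, so their other annotated TSSs were unmarked.

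Smad4 (chromosome 18, 73639009 to 73703780, minus strand) likewise had a peak at 1 of its 6 TSSs. Its marks were promoter peaks of 543 and 1121 bp and an intronic one of 295 bp. Skil (chromosome 3, 31095058 to 31122577, plus strand) differed from all other members in that its mark leaned upstream. Of the bases in its promoter peaks, 47.1% lay downstream of the 5′ end, against 55.5% in Smad2 and 66.3 to 90.7% in the other 8. The median over all genes with a promoter peak was 75.4%, with quartiles of 60.5 and 94.4%, so that most genes, like most members, were marked mainly downstream. Part of this follows from the definition, since the 5′ end is the outermost base of the gene. Peaks at any other annotated TSS of the gene are counted too, and these TSSs lie downstream.

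Promoter peaks of several members came in pairs, with a narrow gap just before the 5′ end of the gene. Such a gap of at most 500 bp, with a base within 500 bp of the 5′ end, was found in 6 of the 10 genes, namely Smad1, Smad4, Smad5, Smad6, Smad7 and Skil. Over all genes with a promoter peak the share was 26.6%. This definition was chosen after the positions were seen. The gaps measured 64 bp in Smad1, 124 bp in Smad4, 131 bp in Smad6, 151 bp in Smad7, 192 bp in Smad5 and 359 bp in Skil. In each of the 6 the gap lay wholly upstream of the 5′ end and the downstream peak was the wider one. Among the 3451 genes with a gap, 52.4% had it wholly upstream and in 79.0% the downstream peak was wider. Over all genes, the share under a peak dipped from 59.6% at 200 bp upstream to 54.7% at 100 bp upstream and then rose to 87.2% at 200 bp downstream.

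**Figure D3:**
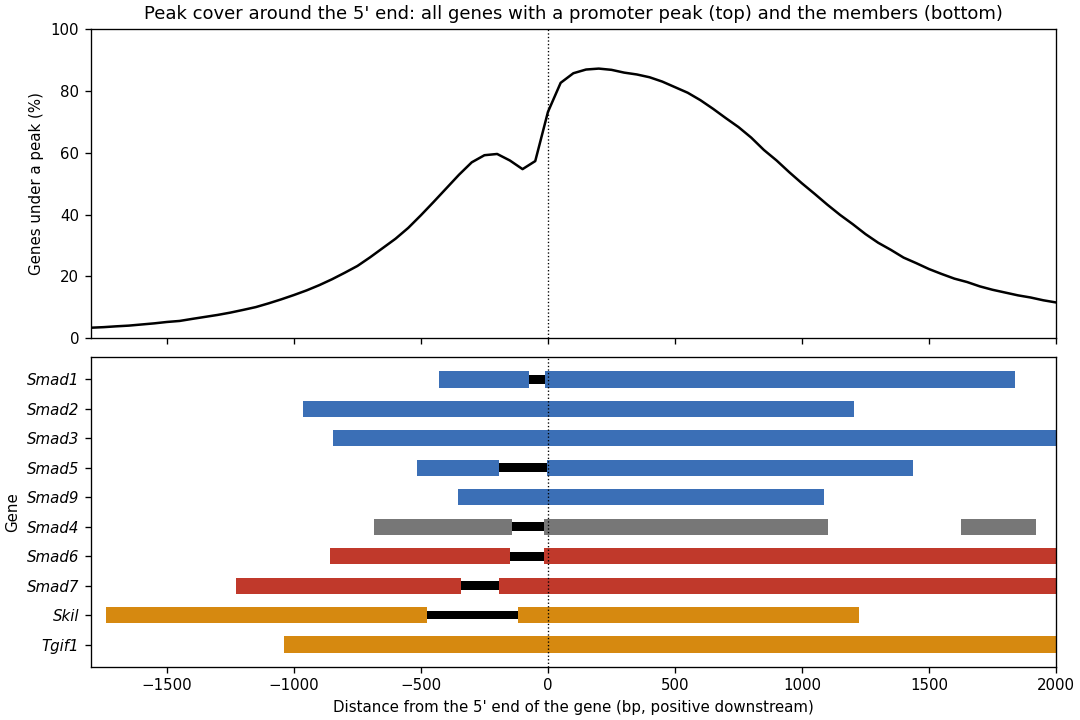
Top, share of the 12966 genes with a promoter peak that are under a peak at each distance from the 5′ end of the gene, in percent. Bottom, peaks of the 10 genes over the same range, in bp, coloured by class, with the gap of 6 genes in black. The black gaps of Smad1, Smad4, Smad5 and Smad6 end within 18 bp of the 5′ end, and those of Smad7 and Skil end further upstream.

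The sequence left between paired peaks was rich in G and C. It held 63.4 to 81.3% G and C in the 6 members, above the flanking peaks in each of them, which held 59.0 to 64.5%. The same order was seen in 74.8% of the 3451 genes, with medians of 63.2% in the gaps and 56.4% in the flanking peaks. The promoter sequences are given so that the gaps can be read. They are shown for the 3 members with a gap and a promoter in the RefSeq table (GRCm38.p6), on the strand of the gene. Capitals mark bases that lie in the gap and outside any peak. The windows are chr8:79399379-79399678 (minus strand) for Smad1, chr13:56702760-56703059 (plus strand) for Smad5 and chr9:64022010-64022309 (minus strand) for Smad6.
Smad1: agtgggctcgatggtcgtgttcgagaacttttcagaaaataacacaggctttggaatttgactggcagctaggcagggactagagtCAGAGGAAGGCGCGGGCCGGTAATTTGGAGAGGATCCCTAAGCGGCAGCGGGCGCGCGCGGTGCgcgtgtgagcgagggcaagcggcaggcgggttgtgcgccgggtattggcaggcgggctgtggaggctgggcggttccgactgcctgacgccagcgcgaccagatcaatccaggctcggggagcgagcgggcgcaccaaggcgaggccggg
Smad5: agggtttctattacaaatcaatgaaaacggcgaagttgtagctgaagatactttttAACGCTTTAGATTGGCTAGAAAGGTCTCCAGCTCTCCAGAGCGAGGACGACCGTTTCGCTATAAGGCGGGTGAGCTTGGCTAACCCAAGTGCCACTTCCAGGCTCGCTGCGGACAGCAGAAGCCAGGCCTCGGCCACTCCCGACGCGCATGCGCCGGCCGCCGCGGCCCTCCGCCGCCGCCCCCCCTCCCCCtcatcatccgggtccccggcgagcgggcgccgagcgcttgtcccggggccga
Smad6: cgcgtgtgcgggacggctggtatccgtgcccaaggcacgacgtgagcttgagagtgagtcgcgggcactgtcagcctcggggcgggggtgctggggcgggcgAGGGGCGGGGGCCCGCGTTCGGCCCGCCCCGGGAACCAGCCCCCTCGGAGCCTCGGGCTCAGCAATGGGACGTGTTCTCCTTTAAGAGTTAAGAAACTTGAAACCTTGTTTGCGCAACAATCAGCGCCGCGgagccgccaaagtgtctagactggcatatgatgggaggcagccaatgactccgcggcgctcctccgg
Of these gaps, that of Smad1 held 70.3% G and C, that of Smad5 67.7% and that of Smad6 63.4%, the lowest of the 6.

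Motifs of the pathway were then searched on both strands of the RefSeq promoter windows, which cover 300 bases each. Promoters of 6 members were in the table, those of Smad1, Smad3, Smad5, Smad6, Smad9 and Tgif1, in 12 windows that in part overlap. The motifs are not independent, since GTCTAGAC and CAGACA share AGAC, and CAGACA on its other strand shares TGTC with TGTCA. The palindrome GTCTAGAC, bound by the DNA-binding domain of Smad3 and Smad4, was found in 1 of these 12 windows, that of Smad6, and in 0.213% of all 32851 windows. The match spans the 5′ end of the gene, from 4 bp upstream to 3 bp downstream, and lies under the 4510 bp peak. It is in capitals here (chr9:64022026-64022093, minus strand).
Smad6 start site: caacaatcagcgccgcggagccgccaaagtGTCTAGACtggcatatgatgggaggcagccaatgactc
The Smad element CAGACA was found in 2 of the 12 windows, both of Tgif1, and in 6913 of the 32851. The upstream match of Tgif1, 187 to 182 bp before the 5′ end, is in capitals (chr17:70853698-70853763, minus strand).
Tgif1 upstream: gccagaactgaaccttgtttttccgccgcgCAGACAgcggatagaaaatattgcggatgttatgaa
The GC-rich Smad element GGCGCC was in 3 of the 12, of Smad5 and Smad9, and in 11.9% of all windows. The Smad5 windows with it overlap and hold the same match, so it was present in 2 of the 6 genes. The Tgif core TGTCA was in 5 of the 12, of Smad6 and Tgif1, and in 45.4% of all. The AP-1 motif TGANTCA was in 0 of the 12 and in 7.81% of all. A match is a stretch of letters and was not tested for binding.

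CpG islands overlapped the widest promoter peak of 9 members, near the share of 87.7% among all genes with a promoter peak. The exception was Smad7, where the peaks of 884 and 3603 bp each overlapped an island and the 7130 bp peak did not. Among the other 9, island bases made up 30.6% of the widest peak in Smad9 and 66.9% in Smad2. In the broad peaks of Smad6 and Tgif1 the share was 42.4 and 38.9%, close to the median of 42.3% over all genes, while Smad1, Smad2, Smad4, Smad5 and Skil were at 56.2% or more. In Smad6 the 1912 island bases under the peak left most of its width outside an island, and in Tgif1 2436 bases of 6270 were island.

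Putative enhancers were counted next, which the authors defined from H3K4me1, H3K27ac and open chromatin away from promoters, and not from H3K4me3 width. Within the gene body or 100 kb of it, the members had 76 distinct enhancers, 10 of them inside a member. Smad6 had 14, Smad7 13, Tgif1 11, Smad3 9, Smad4 and Skil 8 each, Smad1 and Smad5 4 each, Smad9 3 and Smad2 2. Long genes collect more, so a fixed window of 100 kb on either side of the 5′ end was also used. There Smad6 had 11 enhancers, Tgif1 10, Smad7 9 and Skil 8. These 4 inhibitors and corepressors had more than Smad3 (6), Smad4 (5), Smad5 (4), Smad1 (3), Smad9 (3) and Smad2 (2). A count of 8 or more, a limit set after the values were seen, was reached by these 4 of the 10, by 12.2% of genes with a promoter peak and by 9.12% of all protein-coding genes. The median was 3.0 over genes with a promoter peak and 5.5 over the members. It was also 3.0 over the 12 other repressors and inhibitors of the pathway described below. Enhancer number also moved weakly with peak width over all genes with a promoter peak (Spearman rho 0.19). The medians were 2.0, 3.0, 4.0 and 5.0 for widest peaks under 1000 bp, of 1000 to 2000 bp, of 2000 to 3000 bp and above. The part of peak width in the counts of the members was not tested.

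**Figure D4:**
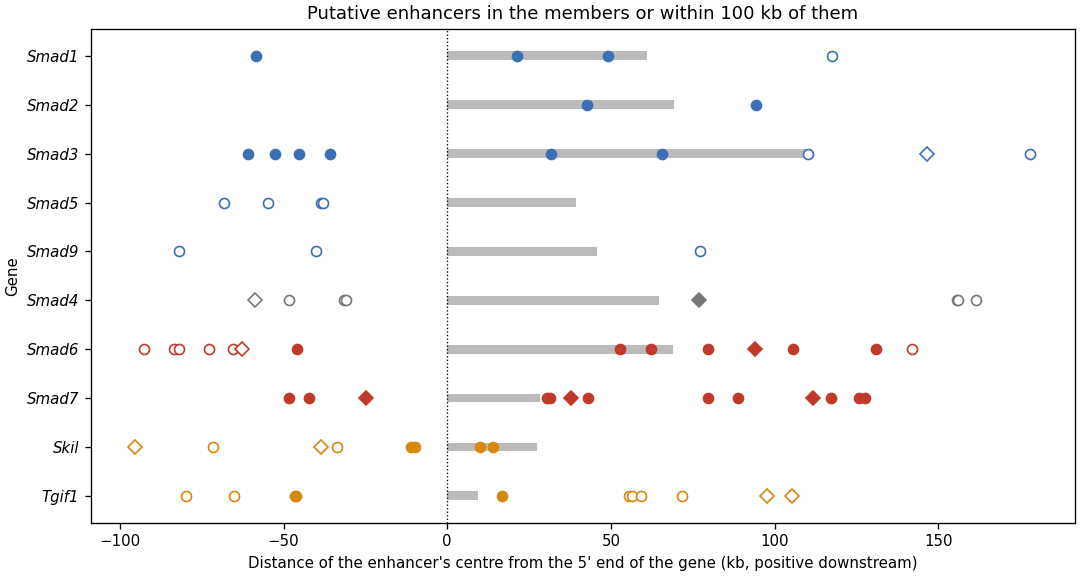
Putative enhancers in the 10 genes or within 100 kb of them, by distance of their centre from the 5′ end, in kb. Grey bars are gene bodies, diamonds are enhancers that overlap an H3K4me3 peak, and filled symbols have the member as the nearest protein-coding gene by TSS. All 13 symbols of Smad7 are filled, while those of Smad5 and Smad9 are open.

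Which gene an enhancer serves is not known from its position. Of the 76, 40 had a TSS of a member as the nearest protein-coding TSS. For Smad7 this held for all 13, of which 3 lay upstream and 10 downstream of the gene and 0 inside it. The downstream ones began 1818 bp past its end and the last one counted was 98465 bp away. For Smad6 it held for 7 of 14, with 6 others nearer to Lctl and 1 nearer to Smad3. For Smad3 it held for 6 of 9, and for Skil for 4 of 8, with the rest nearer to Prkci. Of the 11 enhancers around Tgif1, 6 were nearer to Dlgap1, 2 to Myl12b and 3 to Tgif1. All 4 enhancers near Smad5 lay upstream and were nearer to Tgfbi, itself a TGF-beta target. Of the 8 around Smad4, 4 were nearer to Elac1, 3 to Mex3c and 1 to Smad4.

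The enhancer closest to a 5′ end among the members was in Skil, with its centre 9946 bp downstream, and another lay 9976 bp upstream. In Tgif1 the closest was 16838 bp away, in Smad1 21249 bp and in Smad7 24732 bp. Smad6 had the most enhancers and also the most distant closest one, at 45928 bp. Enhancers around the members had a median width of 653.5 bp, and the whole list of 32965 had one of 405.0 bp. An H3K4me3 peak overlapped 12 of the 76 (15.8%), against 7.52% of all enhancers. These 12 were near Smad7 (3), Smad4, Smad6, Skil and Tgif1 (2 each) and Smad3 (1). By the GENCODE TSSs used here, 72 of the 76 lay outside all windows of 1 kb around a TSS. Among the 12 were an enhancer near Smad6 and another near Tgif1, centred 121 and 182 bp from a TSS. The shares were not adjusted for enhancer width or for distance to a TSS. The distance limit passed between an enhancer 98465 bp from Smad7 on the inside and one of 1852 bp at 101012 bp from Smad5 on the outside.

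Motifs were also searched in a window of 400 bp around the centre of each enhancer. The window has the same length for all and runs past the ends of narrower enhancers, so a match can lie in flanking sequence. CAGACA was present in 29 of the 76 windows (38.2%) and in 38.1% of all. TGANTCA was in 28.9 and 29.4%, and TGTCA in 57.9 and 62.7%. GGCGCC was in 5 of the 76 (6.58%), of which 2 lay near Smad7 and 1 each near Smad3, Smad4 and Smad6, and in 2.64% of all. GTCTAGAC was in 2 of the 76, near Smad7 and near Smad9, and in 0.473% of all. The region counted for Smad9 is shown, with the palindrome inside it in capitals (chr3:54832847-54833088, plus strand, 77385 bp downstream of the 5′ end of Smad9). Its nearest protein-coding TSS was that of Rfxap.
Smad9 region: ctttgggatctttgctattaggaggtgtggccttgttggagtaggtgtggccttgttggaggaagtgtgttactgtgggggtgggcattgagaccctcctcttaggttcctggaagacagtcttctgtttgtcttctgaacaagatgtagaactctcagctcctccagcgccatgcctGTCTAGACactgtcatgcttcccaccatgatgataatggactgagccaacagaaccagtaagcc

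Other genes of the pathway were taken from lists by role. Of 46 genes, 43 (93.5%) had a promoter peak. The median widest peak was 1967 bp, close to the 2007 bp of the members, and 21 reached 2000 bp. Of the 12 ligands 10 had a peak, and the widest were at Tgfb3 (4327 bp), Bmp4 (3312 bp) and Tgfb1 (3181 bp). Bmp7 and Mstn, the gene of the muscle growth inhibitor myostatin, had none. Of the 13 receptors 12 had a promoter peak, the widest at Tgfbr2 (2354 bp), Acvr1 (2345 bp) and Acvr2a (2278 bp). The exception was the co-receptor gene Eng, which had 1 peak, in the gene body only. The median of 1559 bp for receptors was the lowest of the 4 lists.

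All 12 other repressors and inhibitors had a promoter peak, with the widest at Pmepa1 (4479 bp), which sequesters receptor-regulated Smads, Ski (4145 bp) and Smurf1 (3196 bp), a ubiquitin ligase. All 9 target genes had one too, the widest at Ltbp2 (3236 bp), Junb (2977 bp) and Id1 (2739 bp). None of the 46 reached the width of Smad6. Paralogues were set side by side. Ski, the paralogue of Skil, had the wider peak of that pair, with 4145 against 1344 bp. In the other pair it was Tgif1 with 6270 bp, against 2850 bp at Tgif2. Within 100 kb of the 5′ end, Ski had 9 enhancers and Skil 8, and Tgif2 had 3 and Tgif1 10. By list, the median count was 3.0 for ligands and for other repressors and inhibitors, 5.0 for receptors and 7.0 for targets.

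**Figure D5:**
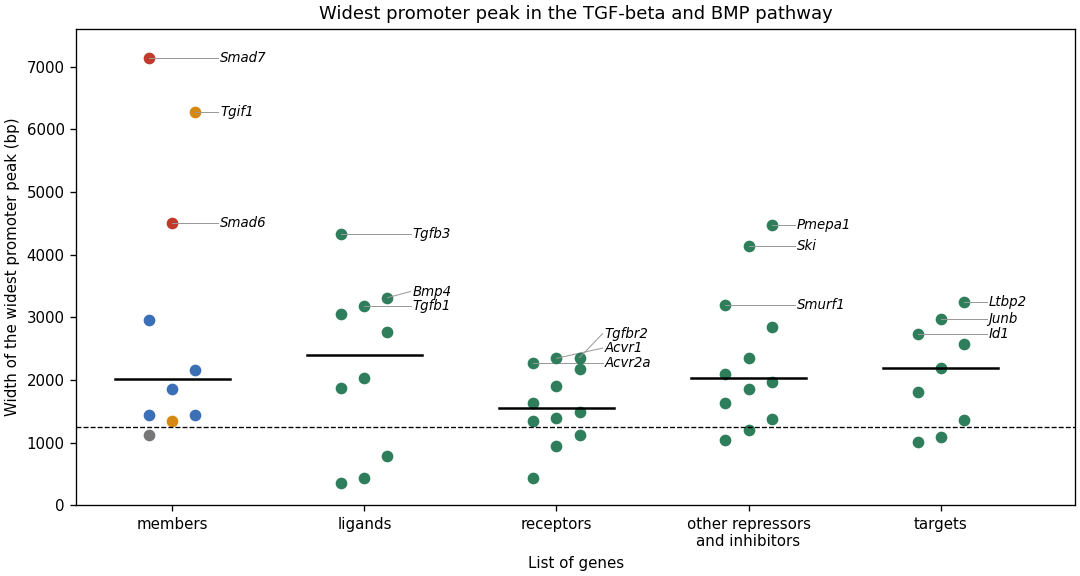
Widest promoter peak, in bp, of each member and of the pathway genes with a promoter peak, by list. Points are genes, solid lines are list medians, and the dashed line is the median of 1255 bp over all genes with a promoter peak. Smad7 and Tgif1 lie above all other points, and the receptors stay at or below 2354 bp.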

How the data were processed

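The authors used Trim Galore to trim reads, BWA to align them to mm10 (GRCm38.p6), samtools to filter them and Picard to merge replicates, and called narrow peaks with MACS (MACS2 in the submitters' processing notes). The deposited lists give positions in base pairs and hold no score and 0 columns of values per sample, so they are neither counts nor signal. Peak starts were read as counting from 0, because end minus start was at least 200, and enhancer starts as counting from 1, because that difference was most often 199. On chromosomes 1 to 19, X and Y there were 25357 peaks and 32965 enhancers, and 0 regions passed a chromosome end. The enhancers are slightly more than the number given in the paper, and the reason is not known. The 74 peaks on other sequences were not used.

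TSSs were the 5′ ends of all GENCODE M21 transcripts of a gene. The authors named release M25 for the genome and Homer for distances, so their TSSs can differ. The 5′ end is the outermost base of the gene. The widest peak is the widest promoter peak of a gene, and ranks run over protein-coding genes with a promoter peak. Exon, coding and untranslated shares refer to the gene's own transcripts. CpG islands were called from the repeat-masked reference (score 17 per CpG, -1 per other base, over 200 bp, GC over 50%, observed to expected over 0.6; 17132 islands), not taken from the published track. Promoter sequences are from RefSeq (250 bases before to 50 after a start). The tools were Python 3.11.15 with Numba 0.67.0, NumPy 2.4.6, Matplotlib 3.10.9 and SciPy 1.17.1. The overlap search, island caller and gap search were tested on simulated data and recovered 200 of 200 queries, 50 of 50 islands and 200 of 200 gaps.

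The members, pathway lists and motifs were chosen with earlier results of these data known, and the limits of 2000 bp, 11 peaks and 8 enhancers and the definition of the gap after the values were seen. All members were named. Of the lists, the 3 widest genes and those without a promoter peak were named, with the paralogues Ski and Tgif2. A planned count test of change over time was not run, since the lists hold no counts.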

Additional observations from a re-analysis of the deposited data

How the results depend on the processing

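No paired analysis was possible because neither list has a column per replicate. Of 35 alternative values, 31 stayed within 1.5 times the reported count or, for the median width, within the binomial interval of a median of 10 values (1344 to 6270 bp). That interval is so wide that staying within it says little about the median width. The number of peaks of the members was 18 with peaks of at least 500 bp and 12 with peaks merged within 1 kb, which follows from both rules, and 29 as reported. The number of enhancers was 43 within 50 kb and 118 within 200 kb, in place of 76. The 10 members kept a promoter peak in all 6 alternatives tried, though the wider window and the merged peaks could not have removed one. Their median widest peak was 2007 bp in 5 of these and 2784 bp with merged peaks. For single peaks the median lies between Smad1 and Smad2, so it would be the same if Smad7 were given its 3603 bp peak. The promoter gap, whose alternatives were chosen after seeing the data, was found in 5 members with gaps of at most 300 bp, where Skil was lost, and in 6 with gaps of up to 1000 bp or peaks of at least 300 bp. Alternatives for change over time, including leaving out a replicate, DESeq2 and a filter on low counts, were not run. The depth behind a peak cannot be read from the lists, and weak or narrow peaks are found or missed with depth.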
